A study of Homo sapiens with 24 samples.

Results

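The response of HAP1 cells to lomustine was measured in 5 lines whose eIF2-alpha carries no labelled change, on 14 of the 24 arrays of the series. HAP1 is a near-haploid human cell line that derives from the chronic myelogenous leukemia line KBM-7. The arrays were chosen by their titles: 7 arrays of cells given lomustine at 200 µM for 2 h, and 7 arrays of cells with no drug. The lines were the parental line (PAR) and 4 lines bought with a mutation in HRI, GCN2, PKR or PERK, each a kinase of eIF2-alpha. PAR and HRI had 2 arrays in each arm, lettered A and B, and GCN2, PKR and PERK had 1. The sources used here do not say whether the lettered arrays came from separate cultures, so the p-values measure only the spread between these arrays. Nor do they say how many clones stand behind a line. Of the other arrays, 2 of the line S51A with lomustine and 2 of S51A with no drug were used for a comparison, as were the 5 arrays of the 5 lines titled SA100, a treatment of 2 h. S51A is named for the exchange of the regulatory serine of eIF2-alpha. The titles of the SA100 arrays conflict with their agent field, which names lomustine. Since the protocol lists NaAsO2 (100 µM, 2 h), sodium arsenite, as the other exposure, the arrays were grouped by title. Total RNA was labelled and hybridised to an Affymetrix array, and every level given here is a log2 signal.

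Lomustine is a nitrosourea used in chemotherapy that alkylates DNA and links its strands, and its breakdown also yields isocyanates that react with proteins. Phosphorylation of eIF2-alpha by any of the 4 kinases slows translation while it favours translation of the transcription factor ATF4, whose target genes make up much of the integrated stress response. Immediate-early genes such as EGR1 and FOS are transcribed within minutes of a signal, without new protein synthesis, and the heat shock genes follow the factor HSF1 when proteins unfold.

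The arrays of the 5 lines were alike in overall level, with medians between 2.34 and 2.47. In PAR lomustine A, 3.19% of probe sets lay over 1 log2 unit away from their median among the 14 arrays, against 0.739% to 2.71% on the other 13. HRI lomustine B and HRI no drug A, at 2.70% and 2.71%, were each other's closest array among all 24 (r = 0.972 across probe sets, which are not independent replicates). The kinase transcripts marked the lines poorly. EIF2AK1, which encodes HRI, had 7.84 and 7.60 on the lomustine arrays of the HRI line and 7.49 and 7.80 on its no drug arrays, inside the span of the other lines but for HRI no drug A. EIF2AK3, which encodes PERK, had 3.54 with lomustine and 3.33 with no drug in the PERK line, both below every other array of the 5 lines in these arms. EIF2AK4, which encodes GCN2, had 5.89 with lomustine and 5.84 with no drug in the GCN2 line, where only PAR lomustine A was lower. EIF2AK2, which encodes PKR, had 7.55 with lomustine and 7.79 with no drug in the PKR line, within the span of the rest. A cell can lack a kinase and keep its transcript, so these levels are no check of the line names. Of the markers of blood cells, 4 of 14 on the array stayed below 2.41, the median of all values, on all 14 arrays (HBB, HBG2, LYZ and PTPRC), and GATA1 and HBE1 reached it on all. Among epithelial markers 0 of 10 and among fibroblast markers 3 of 9 stayed below it throughout. In such bulk samples, fewer cells of a type and less RNA per cell cannot be told apart.

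Few genes passed the test for a change after 2 h of lomustine. Among 16991 genes tested, limma called 34 higher with lomustine (0.2% of all tested) and 29 lower (0.171%) at an adjusted p of 0.05, with line as a block. In the same test 1585 genes had an unadjusted p under 0.05, so the calls do not count the transcripts that changed. The change reached 2-fold in 21 of the 34 and in 12 of the 29. All 34 were higher and all 29 lower in each of the 5 lines by sign, which held for 4.43% and 10.1% of all genes. The 7 lomustine arrays lay wholly above the 7 no drug arrays for 26 of the 34, against 0.2% of all genes, and wholly below them for 12 of the 29, against 0.224%. Because the calls and the overlaps come from the same arrays, these shares describe the called genes and do not support their calls. The median change over all genes was -0.03 (0.01 after the table was quantile normalized again), and the median standard error of a change was 0.13.

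Immediate-early genes held the largest change. EGR1, a zinc finger transcription factor that the series title names, had a lowest, median and highest signal of 6.89, 7.87 and 8.69 on lomustine arrays, against 3.73, 4.25 and 4.75 on no drug arrays. The lowest lomustine array, HRI A, was more than 2 log2 units above the highest no drug array. The mean of EGR1 was 7.74 ± 0.59 with lomustine and 4.26 ± 0.33 with no drug (SD, n = 7 each), a log2 change of 3.48 (SE 0.18, adjusted p = 5.72e-07), or 11.1-fold. JUN, a subunit of the AP-1 transcription factor, had 4.66, 5.57 and 6.90 with lomustine, against 2.58, 3.51 and 4.38 with no drug. Its arms did not overlap, and its spread was wide in both, with a change of 2.20 (SE 0.28, adjusted p = 0.00199). Without the PAR line the adjusted p of JUN was 0.0622. DUSP1, a phosphatase that switches MAP kinases off, had 6.12, 6.65 and 7.17 with lomustine, against 4.93, 5.07 and 5.20 with no drug, where the 7 arrays were nearly level. It rose by 1.62 (SE 0.14, adjusted p = 7.32e-05). FOSB, a partner of JUN, had 4.60, 4.75 and 5.49 with lomustine, against 2.96, 3.38 and 3.71 with no drug, again with no overlap, and rose by 1.56 (SE 0.15, adjusted p = 1.96e-04). These values are from the brighter of its 2 probe sets, and the change of FOSB ran from 0.97 to 1.64 over 24 alternatives. FOS, the founding member of that family, rose by 1.15 (SE 0.20), but its arms overlapped and its call was lost without PAR (adjusted p = 0.280), HRI (0.0706), GCN2 (0.0936) or PKR (0.0867). IER2, a short-lived nuclear protein, rose by 0.91 (SE 0.13), and ZFP36, which binds and destabilises AU-rich mRNAs, by 0.85 (SE 0.16, called in 9 of 24 alternatives).

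Most genes of this class did not pass. Of 39 immediate-early genes tested 6 rose and 0 fell, against 0.2% and 0.171% of all genes. The median change was 0.16 beside -0.03 over all genes. In limma's test 18 of the 39 had an unadjusted p under 0.05, beside 1585 of all 16991 genes. The other 33 did not pass, among them the paralogs of the genes that rose. EGR3 had a change of 0.36 (adjusted p = 0.624) and EGR4 of -0.18 (0.724), JUNB of 0.30 (0.372), JUND of 0.60 (0.135), FOSL1 of -0.22 (0.886) and FOSL2 of 0.12 (0.879). MYC changed by 0.01 (0.995). The matricellular genes CCN1 and CCN2 had changes of -0.83 (0.236) and -0.62 (0.175), negative in all 5 lines. NAB2, which represses EGR1 and is itself an EGR1 target, had -0.67 (0.110). Of 11 MAP kinase phosphatases 1 rose, DUSP1, with a median of 0.09, and 5 had an unadjusted p under 0.05. All 3 members of the GADD45 family, which act in stress signalling, had positive changes, beside 6872 of all 16991 genes, and 1 passed. GADD45B had 4.62, 5.89 and 7.55 with lomustine, against 3.88, 4.42 and 4.65 with no drug, so that the lowest lomustine array, that of PERK, overlapped the no drug arm. It rose by 1.73 (SE 0.29, adjusted p = 0.0208), a call that was lost without PAR (0.233), HRI (0.0885), GCN2 (0.0771) or PKR (0.0587).

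**Figure D1:**
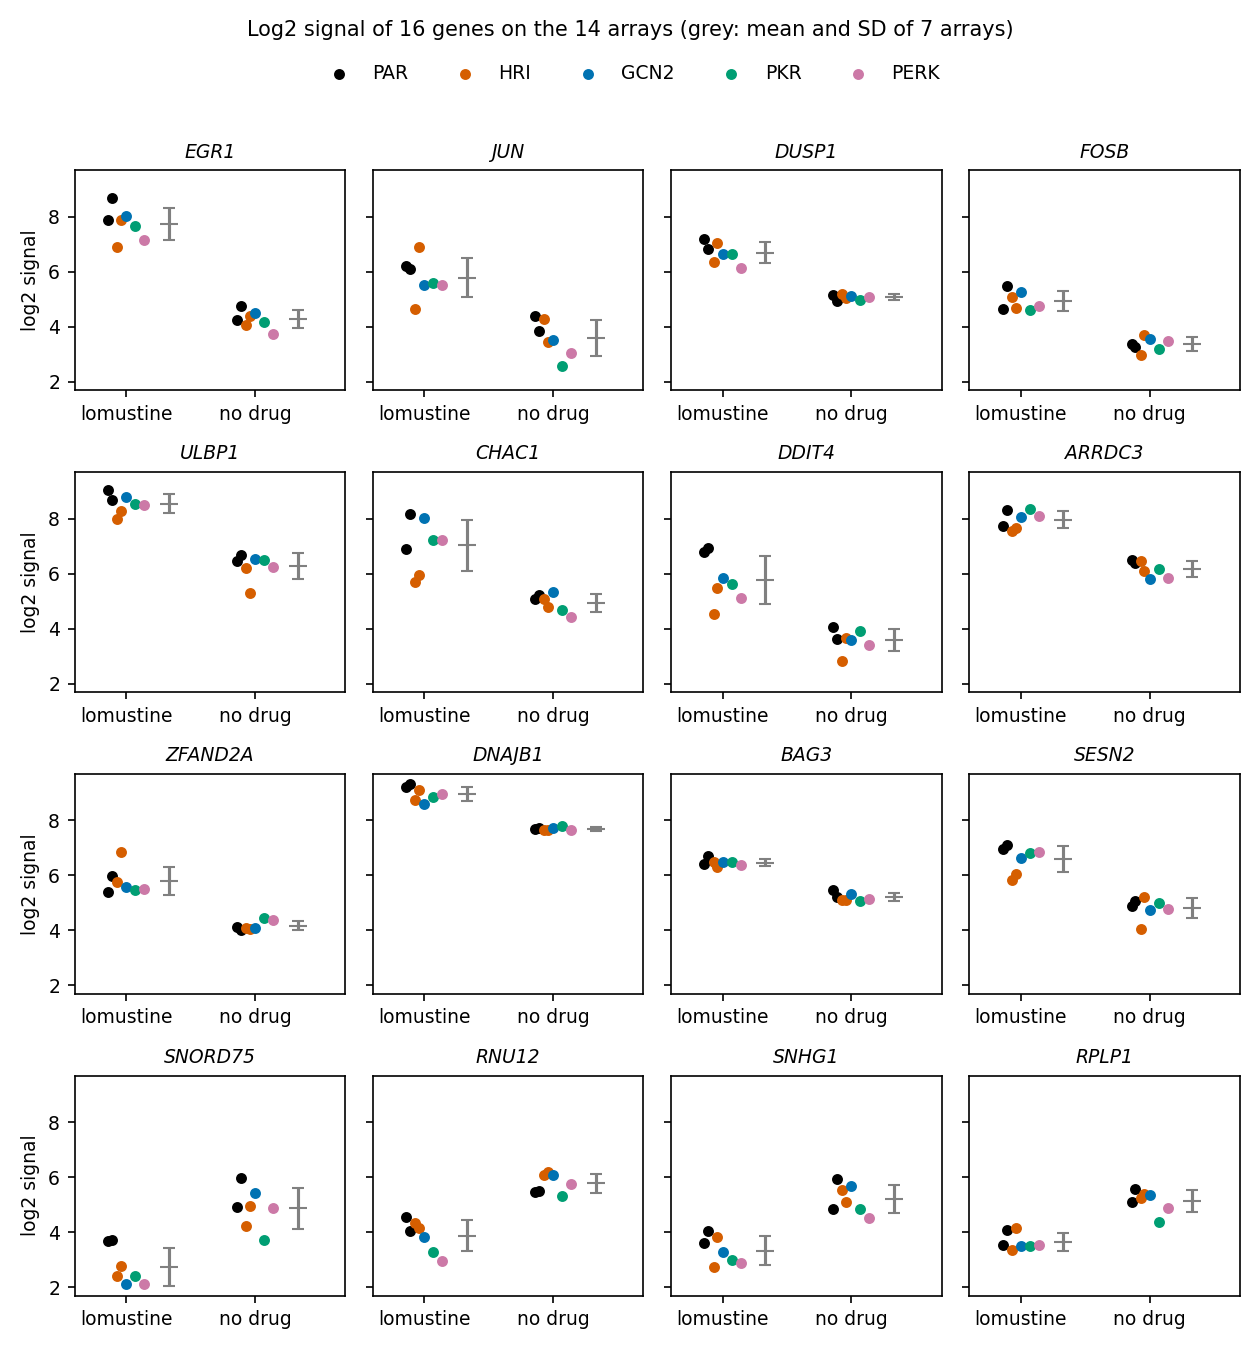
Log2 signal of 16 genes on the 14 arrays, with lomustine on the left and no drug on the right of each panel and each point an array coloured by line; the grey mark is the mean and SD of 7 arrays. In all 16 panels the arms do not overlap, with EGR1 at 6.89 to 8.69 with lomustine and 3.73 to 4.75 with no drug, and SNORD75 at 2.12 to 3.73 with lomustine and 3.74 to 5.96 with no drug.

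The promoters of EGR1 and DUSP1 are shown because they are textbook cases of signal-driven transcription. The EGR1 window, from RefSeq on GRCh38.p14 at chr5:138465354-138465425 on the plus strand, covers bases 125 to 54 before the start of transcription, and the capitals mark its 2 CArG boxes, the sequence that serum response factor binds. The DUSP1 window, at chr5:172771293-172771340 on the minus strand, covers bases 145 to 98 before the start, and the capitals mark TGACGTCA, the cyclic AMP response element bound by CREB and ATF proteins.
EGR1: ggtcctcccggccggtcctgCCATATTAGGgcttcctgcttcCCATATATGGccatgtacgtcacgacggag
DUSP1: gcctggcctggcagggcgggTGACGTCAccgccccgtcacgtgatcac
Both strands of the 250 bases before each RefSeq start were searched, a gene with several starts counted if any of them held the motif, and matches of different motifs may overlap. A CArG box was found before 1 of the 33 called higher genes with an entry (3.03%), EGR1, before 0 of the 19 called lower genes with an entry, and before 1.44% of 27305 genes. TGACGTCA was found before 2 of the 33 (6.06%), DUSP1 and PPP1R15A, before 3 of the 19 (15.8%), and before 2.03% of all. With counts this small the shares are descriptions of these letters in these windows.

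Targets of ATF4 and CHOP rose as a subset. Of 32 genes tested 6 rose and 0 fell, and the median change was 0.09, beside -0.03 over all genes. In limma's test 10 of the 32 had an unadjusted p under 0.05. ULBP1, a ligand by which natural killer cells recognise stressed cells through the receptor NKG2D, had 8.00, 8.52 and 9.06 with lomustine, against 5.31, 6.45 and 6.67 with no drug. Its arms lay more than 1 log2 unit apart, and it rose by 2.27 (SE 0.14, adjusted p = 2.24e-06), 4.83-fold. DDIT4, an inhibitor of the growth kinase complex mTORC1, had 4.53, 5.63 and 6.93 with lomustine, against 2.82, 3.61 and 4.05 with no drug. Both PAR arrays were highest under lomustine, and the gene rose by 2.18 (SE 0.22, adjusted p = 2.87e-04). CHAC1, which cleaves glutathione, had 5.71, 7.21 and 8.17 with lomustine, against 4.42, 5.06 and 5.33 with no drug. The HRI arrays gave its 2 lowest lomustine values, 5.71 and 5.96, still above every no drug array, and the change over the 5 lines was 2.08 (SE 0.26, adjusted p = 0.00163). SESN2, which senses leucine and restrains mTORC1, rose by 1.79 (SE 0.17, adjusted p = 1.31e-04), without overlap of the arms. SLC38A2, a transporter of neutral amino acids, had 8.91, 9.06 and 9.39 with lomustine, against 8.12, 8.31 and 8.57 with no drug. Its change was modest at 0.77 (SE 0.09, adjusted p = 0.0014) but cleanly separated. ASNS, asparagine synthetase, rose by 0.72 (SE 0.13, adjusted p = 0.0380) with overlapping arms, and was called in 12 of 24 alternatives.

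The remaining 26 members did not pass. Among them were the cystathionine gamma-lyase gene CTH at 0.60 (adjusted p = 0.207), STC2 at 0.58 (0.110), VEGFA at 0.53 (0.0896), and the cystine transporter gene SLC7A11 at 0.30. The serine synthesis genes PHGDH, PSAT1 and PSPH lay at 0.09, 0.04 and -0.12, and the aminoacyl-tRNA synthetase genes AARS1, GARS1, MARS1, SARS1 and WARS1 between -0.12 and 0.09. ULBP1 was also the 1 called gene among 6 tested ligands of natural killer cell receptors: ULBP2 had a change of -0.01 (0.996), ULBP3 of 0.02 (0.994), MICA of -0.19 (0.663) and MICB of 0.06 (0.909).

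Of 11 stress transcription factors and feedback genes of the same response 2 rose and 0 fell, with a median of 0.32. In limma's test 6 of the 11 had an unadjusted p under 0.05. ATF3, a repressor induced by many stresses, had 5.01, 5.24 and 6.19 with lomustine, against 2.90, 3.98 and 4.51 with no drug. No array of the arms overlapped, and ATF3 rose by 1.60 (SE 0.26, adjusted p = 0.0153), with adjusted p = 0.0972 without PAR and 0.0654 without GCN2. PPP1R15A, also called GADD34, which directs a phosphatase to eIF2-alpha and so ends the response, rose by 0.84 (SE 0.15, adjusted p = 0.0305) and was called in 15 of 24 alternatives. The call was lost without PAR (0.315), GCN2 (0.0636), PKR (0.117) or PERK (0.0593). DDIT3, which encodes CHOP, had a mean of 3.53 ± 0.66 with lomustine and 2.30 ± 0.35 with no drug (SD, n = 7 each), a change of 1.23 (SE 0.24) that just missed the threshold (adjusted p = 0.0506). Its no drug mean lay under 2.41, the median of all values, so the size of the change is less certain. ATF4 itself had 8.42, 8.55 and 8.78 with lomustine, against 8.06, 8.27 and 8.57 with no drug, overlapping but higher in all 5 lines (0.32, SE 0.10, adjusted p = 0.280). The substrate EIF2S1, which encodes eIF2-alpha, had a change of -0.16 (SE 0.11, adjusted p = 0.750), and the kinase genes EIF2AK1, EIF2AK2, EIF2AK3 and EIF2AK4 had changes of -0.03, -0.14, -0.04 and -0.02, each with an adjusted p of at least 0.759. Of the 13 genes for eIF2, eIF2B and the kinases 0 passed, also at an unadjusted p under 0.05.

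HERPUD1, which acts in the degradation of proteins of the endoplasmic reticulum and is driven by both ATF4 and the unfolded protein response, rose by 0.89 (SE 0.10, adjusted p = 6.91e-04) although its arms overlapped. It was the 1 called gene of 24 in the unfolded protein response, whose median was -0.14, and 10 of the 24 had an unadjusted p under 0.05. The chaperone gene HSPA5, the standard readout of that response, had -0.41 (adjusted p = 0.238), and XBP1 had 0.07 (0.915).

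The windows of CHAC1, ATF3, HERPUD1 and PPP1R15A are shown as examples of called genes of this response that hold a motif of ATF4 or its relatives. Capitals mark TGATGNAA, in either direction, the core of the composite site for ATF4 and C/EBP proteins, and in PPP1R15A they mark TGACGTCA. All are from RefSeq on GRCh38.p14, plus strand: chr15:40953242-40953289 for CHAC1 (bases 229 to 182 before the start), chr1:212565196-212565243 for ATF3 (211 to 164), chr16:56931946-56931993 for HERPUD1 (196 to 149) and chr19:48872343-48872390 for PPP1R15A (78 to 31).
CHAC1: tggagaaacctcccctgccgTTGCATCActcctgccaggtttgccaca
ATF3: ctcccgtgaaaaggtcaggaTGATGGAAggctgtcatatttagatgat
HERPUD1: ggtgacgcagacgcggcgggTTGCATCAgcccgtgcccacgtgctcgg
PPP1R15A: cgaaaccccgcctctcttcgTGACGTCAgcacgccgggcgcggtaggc
TGATGNAA was found before 4 of the 33 called higher genes (12.1%), the fourth being ASNS, before 2 of the 19 called lower genes (10.5%), and before 3.89% of 27305 genes. CHAC1 and HERPUD1 hold the same 8 letters, on the same strand.

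Heat shock genes made the third group, and all 17 tested had a positive change, beside 6872 of all 16991 genes. Of the 17, 5 were called higher and 0 lower, against 0.2% and 0.171% of all genes. Their median was 0.15, and 7 had an unadjusted p under 0.05 in limma's test. ZFAND2A, a regulator of the proteasome also known as AIRAP, had 5.39, 5.57 and 6.85 with lomustine, against 4.01, 4.09 and 4.44 with no drug. HRI lomustine B was the highest array by a margin, and the gene rose by 1.62 (SE 0.19, adjusted p = 0.00103). DNAJB1, a co-chaperone that delivers substrates to HSP70, had 8.61, 8.95 and 9.33 with lomustine, against 7.64, 7.69 and 7.82 with no drug, a tight and wholly separate pair of arms (1.28, SE 0.11, adjusted p = 5.67e-05). BAG3, a nucleotide exchange factor of HSP70, was as tight, with 6.32, 6.48 and 6.69 with lomustine, against 5.07, 5.15 and 5.46 with no drug. It rose by 1.26 (SE 0.09, adjusted p = 1.48e-05), and its 5 line differences lay between 1.17 and 1.42. HSPA1L, an HSP70 gene, rose by 1.33 (SE 0.17, adjusted p = 0.00194), with adjusted p = 0.0534 without the HRI line. Its signal may include near-identical HSP70 transcripts. DEDD2, a nuclear death-effector protein, rose by 0.64 (SE 0.11, adjusted p = 0.0218) with overlapping arms and was called in 14 of 24 alternatives. DNAJB4 had 1.03 (SE 0.25, adjusted p = 0.125) without a call. Among the abundant chaperones that did not pass, HSP90AA1 had 0.12 (adjusted p = 0.792), HSPB1 0.09 (0.877) and HSPH1 0.26 (0.416). The heat shock element is shown for ZFAND2A, at chr7:1160340-1160387 of GRCh38.p14 on the minus strand, bases 191 to 144 before the start, with capitals on TTCNNGAA, the core on which HSF1 binds.
ZFAND2A: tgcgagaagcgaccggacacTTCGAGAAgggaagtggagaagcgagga
This core was found before 3 of the 33 called higher genes (9.09%), BCL6, DDIT4 and ZFAND2A, before 1 of the 19 called lower genes (5.26%) and before 8.12% of 27305 genes, so its share is close to that of all genes. TGANTCA, the AP-1 site, was found before 3 of the 33 (9.09%), 3 of the 19 (15.8%) and 8.06% of all.

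Further genes that rose with lomustine belong to none of these 3 classes. ARRDC3, an arrestin-like adaptor that steers receptors to degradation, had 7.55, 8.06 and 8.33 with lomustine, against 5.81, 6.15 and 6.48 with no drug. The arms were more than 1 log2 unit apart, and it rose by 1.80 (SE 0.15, adjusted p = 5.67e-05). BCL6, a transcriptional repressor, rose by 1.36 (SE 0.14, adjusted p = 3.23e-04), SERTAD1, a co-regulator of E2F and CDK4, by 1.33 (SE 0.18, adjusted p = 0.00369), and MXD1, an antagonist of MYC at their shared partner MAX, by 1.28 (SE 0.12, adjusted p = 1.31e-04), all without overlap. NFKBIZ, a nuclear inhibitor-like regulator of NF-kB, rose by 1.20 (SE 0.19, adjusted p = 0.0153) and was the 1 called of 16 NF-kB targets, whose median was -0.06. Its call was lost without PAR (adjusted p = 0.235), GCN2 (0.0622) or PERK (0.0633). HSD17B7, an enzyme of sterol and steroid synthesis, rose by 1.02 (SE 0.16, adjusted p = 0.0145), from a no drug mean of 1.83 that lay under 2.41. Its call was lost without GCN2 (0.0738), PKR (0.0660) or PERK (0.0633). It was the 1 called of 17 cholesterol synthesis genes, whose median was -0.01. MIR4521, a microRNA gene, had likewise a no drug mean of 1.54 and a lomustine mean of 2.53, and was called in 9 of 23 alternatives. IER2, ZFP36, SLC38A2, ASNS, MXD1 and MIR4521 were named after their values were seen, as were the list members given here without a call, except those covered by the naming rule in the account of the processing. So were the last 4 of the 34, which had changes of 0.57 to 0.88 and were called in 10 to 22 of 24 alternatives: EPC1, a subunit of the NuA4 acetyltransferase, MAP3K14, the NF-kB inducing kinase, ACTRT3, an actin-related protein, and BRD2, a bromodomain protein that reads acetylated histones.

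Among 26 p53 targets 1 rose and 1 fell, with a median of -0.03 beside -0.03 over all genes. PMAIP1, which encodes the BH3-only protein NOXA and is driven by p53 and by ATF4, had 6.41, 6.66 and 7.08 with lomustine, against 5.23, 5.75 and 6.11 with no drug. The arms did not overlap, and it rose by 0.88 (SE 0.12, adjusted p = 0.00266). MDM2, the ubiquitin ligase of p53, had 6.25, 6.55 and 6.74 with lomustine, against 6.94, 7.18 and 7.48 with no drug, and fell by 0.65 (SE 0.11, adjusted p = 0.0172). The call was lost without PAR (0.224), GCN2 (0.0905), PKR (0.0581) or PERK (0.0754), and held in 17 of 24 alternatives. CDKN1A, the p53 target that halts the cell cycle, had -0.02 (adjusted p = 0.994).

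Among annotated genes, the transcripts that fell most were small noncoding RNAs and a host transcript. Of the probe sets without a gene name, which were tested apart, 17 that were called fell further than any of these, to a change of -3.59. Some of the 17 had the same change, SE and means as another, so they are not counted as separate transcripts. SNORD75, a box C/D small nucleolar RNA, of a class that guides 2′-O-methylation, had 2.12, 2.43 and 3.73 with lomustine, against 3.74, 4.92 and 5.96 with no drug. The arms touched but did not overlap, and the change was -2.12 (SE 0.23, adjusted p = 4.97e-04), 4.34-fold lower with lomustine. RNU12, the U12 small nuclear RNA that recognises the branch site of minor introns, had 2.96, 4.04 and 4.56 with lomustine, against 5.32, 5.77 and 6.21 with no drug. It was clearly lower on every lomustine array, by -1.90 (SE 0.18, adjusted p = 1.31e-04). SNHG1, a spliced noncoding RNA whose introns hold small nucleolar RNAs, had 2.72, 3.30 and 4.06 with lomustine, against 4.51, 5.09 and 5.95 with no drug, a separate pair of arms with a change of -1.87 (SE 0.20, adjusted p = 4.83e-04). SNORD12C had -1.84 (SE 0.28, adjusted p = 0.0103), SNORD4B -1.41 (SE 0.25, adjusted p = 0.0283), SNORD35B -1.22 (SE 0.23, adjusted p = 0.0398), SNORD51 -1.19 (SE 0.17, adjusted p = 0.00521) and the box H/ACA member SNORA3B, of the class that guides pseudouridylation, -1.10 (SE 0.20, adjusted p = 0.0335). Of these 5, SNORD51 alone had arms that did not overlap. Their calls were less stable than that of SNORD75: SNORD12C was called in 21 of 24 alternatives, SNORD51 in 23, SNORD4B in 17, SNORA3B in 14 and SNORD35B in 12. SNORD51 had an adjusted p of 0.0972 without PAR, and without HRI the adjusted p was 0.0913 for SNORD12C, 0.157 for SNORD4B, 0.205 for SNORD35B and 0.121 for SNORA3B. Leaving out GCN2 or PKR also lost the calls of these 4, with an adjusted p of 0.0506 to 0.139.

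Most members of the small RNA classes did not pass. Over all genes 0.2% were called higher and 0.171% lower, and 1585 of 16991 had an unadjusted p under 0.05 in limma's test. Of 75 box C/D RNAs tested 5 fell and 0 rose (20 at an unadjusted p under 0.05), with a median of -0.05. Of 56 box H/ACA RNAs 1 fell and 0 rose (10 at an unadjusted p under 0.05), with a median of -0.02. Of 20 small Cajal body RNAs 0 passed (3 at an unadjusted p under 0.05), with a median of 0.07. SNORD72 had -1.34 (SE 0.27, adjusted p = 0.0560), with a lomustine mean of 1.99 that lay under 2.41. Neighbours in 1 host gene could differ. SNORD12C lies in an intron of ZFAS1 along with SNORD12 and SNORD12B, which had changes of -0.11 (SE 0.21) and -0.14 (SE 0.14), while ZFAS1 itself had 0.05 (SE 0.11). SNORD75 shares the host GAS5 with SNORD78, which had -0.03 (SE 0.12), and GAS5 had -0.45 (SE 0.16, adjusted p = 0.371). SNORD4B shares the host RPL23A with SNORD42A, which had 0.02 (SE 0.10). These neighbours were picked after the values of SNORD12C, SNORD75 and SNORD4B were seen, and the differences between them were not tested. Of 16 host transcripts tested SNHG1 was the 1 called (7 at an unadjusted p under 0.05), and the median was -0.13. Of the 4 minor spliceosome RNAs RNU12 fell, RNU11 had -0.56 (SE 0.12, adjusted p = 0.0783), RNU4ATAC 0.12 and RNU6ATAC 0.12 (adjusted p = 0.844 and 0.908).

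Genes that encode proteins were also called lower. RPLP1, which encodes a protein of the ribosomal stalk, had 3.34, 3.53 and 4.15 with lomustine, against 4.37, 5.24 and 5.56 with no drug. The arms did not overlap, and the change was -1.47 (SE 0.16, adjusted p = 3.98e-04). RPS7 had -0.62 (SE 0.11, adjusted p = 0.0335), called in 10 of 24 alternatives, and the other 51 of 53 ribosomal protein genes did not pass. The median of that list was -0.16, below -0.03 for all genes. In it 17 of 53 were lower in all 5 lines, against 10.1% of all genes. In limma's test 16 of the 53 had an unadjusted p under 0.05, beside 1585 of all 16991 genes. The median no drug signal of RPS7 was 3.55, beside 2.41 for all values. Which transcripts the probe sets of RPLP1 and RPS7 detect was not tested, and probe sets of ribosomal protein genes may also detect related copies. NOG, the secreted inhibitor of bone morphogenetic proteins, had 4.42, 4.66 and 4.88 with lomustine, against 5.42, 5.62 and 6.17 with no drug, a clean separation with a change of -1.01 (SE 0.11, adjusted p = 6.51e-04). HMGN2, a nucleosome-binding protein, fell by 1.12 (SE 0.22, adjusted p = 0.0457), its lomustine mean of 2.40 being under 2.41, and was called in 11 of 24 alternatives. SPIN4, a reader of histone methylation of the spindlin family, fell by 1.06 (SE 0.17, adjusted p = 0.0145), ZNF460, a zinc finger protein, by 0.96 (SE 0.16, adjusted p = 0.0185), and PCDH18, a protocadherin, by 0.93 (SE 0.16, adjusted p = 0.0223), with overlapping arms in each. They were called in 22, 18 and 13 of 24 alternatives. Of 23 histone genes 2 fell. H2BC26, of the H2B family, fell by 0.81 (SE 0.15, adjusted p = 0.0398) and was called in 9 of 24 alternatives. The linker histone gene H1-3, with a median lomustine signal of 2.44, fell by 0.68 (SE 0.13, adjusted p = 0.0455). It was called in 8 of 24. The remaining 11 of the 29, named after their values were seen, had changes between -0.78 and -0.47 and were called in 9 to 19 of 24 alternatives: the microRNA gene MIR548AL, the arrestin-like ARRDC4, PTAR1, ENO1 (the glycolytic enzyme enolase), the homeobox gene DLX6, the WNT co-receptor LRP6, the AKT phosphatase PHLPP2, BCKDHB of branched-chain amino acid breakdown, MYADM, AMD1 of polyamine synthesis, and the antisense RNA ZNF143-AS1.

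Several lists a reader might look for in cells treated with an alkylating agent held no called gene. Over all genes 0.2% were called higher and 0.171% lower, so a count of 0 in lists this short does not show that their genes were unchanged. At an unadjusted p under 0.05 limma's test had 1585 of all 16991 genes. Repair of alkylated and crosslinked DNA had 0 of 29 called by limma, 4 with an unadjusted p under 0.05, and a median of -0.11. MGMT, which removes alkyl groups from guanine, had 2.64 ± 0.30 with lomustine and 2.72 ± 0.29 with no drug (SD, n = 7 each), close to the median of all values. REV3L, a subunit of a translesion polymerase, had -0.49 (adjusted p = 0.249), and FANCF, of the Fanconi anemia core complex, had -0.42 (0.349). Of 21 oxidative stress genes 0 were called, 2 had an unadjusted p under 0.05, and the median was 0.02. HMOX1, the heme oxygenase, had 4.92, 5.49 and 6.11 with lomustine, against 4.27, 4.55 and 4.89 with no drug. Its arms did not overlap, yet its change of 0.84 (SE 0.18) missed the threshold (adjusted p = 0.0754) and passed it in 7 of 24 alternatives. The 6 metal response genes tested all had negative changes, where 6872 of all 16991 genes had positive ones. Their median was -0.39, with 0 called and 3 with an unadjusted p under 0.05. SLC30A1, a zinc exporter, had 5.96, 6.67 and 7.09 with lomustine, against 7.28, 7.38 and 7.92 with no drug, again with no overlap, a change of -0.87 (SE 0.17, adjusted p = 0.0560) that passed the threshold in 9 of 24 alternatives. S phase (21 genes, median -0.05), G2 and mitosis (23, -0.14), stress granule components (23, -0.16) and the interferon response (13, -0.04) had 0 called, with 2, 6, 3 and 1 at an unadjusted p under 0.05. In the apoptosis list (23, -0.13) PMAIP1 was the 1 called. Markers of blood (9 tested, median -0.12), epithelium (9, 0.04) and fibroblasts (5, 0.09) had 0 called, with 0, 2 and 0 at an unadjusted p under 0.05.

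**Figure D2:**
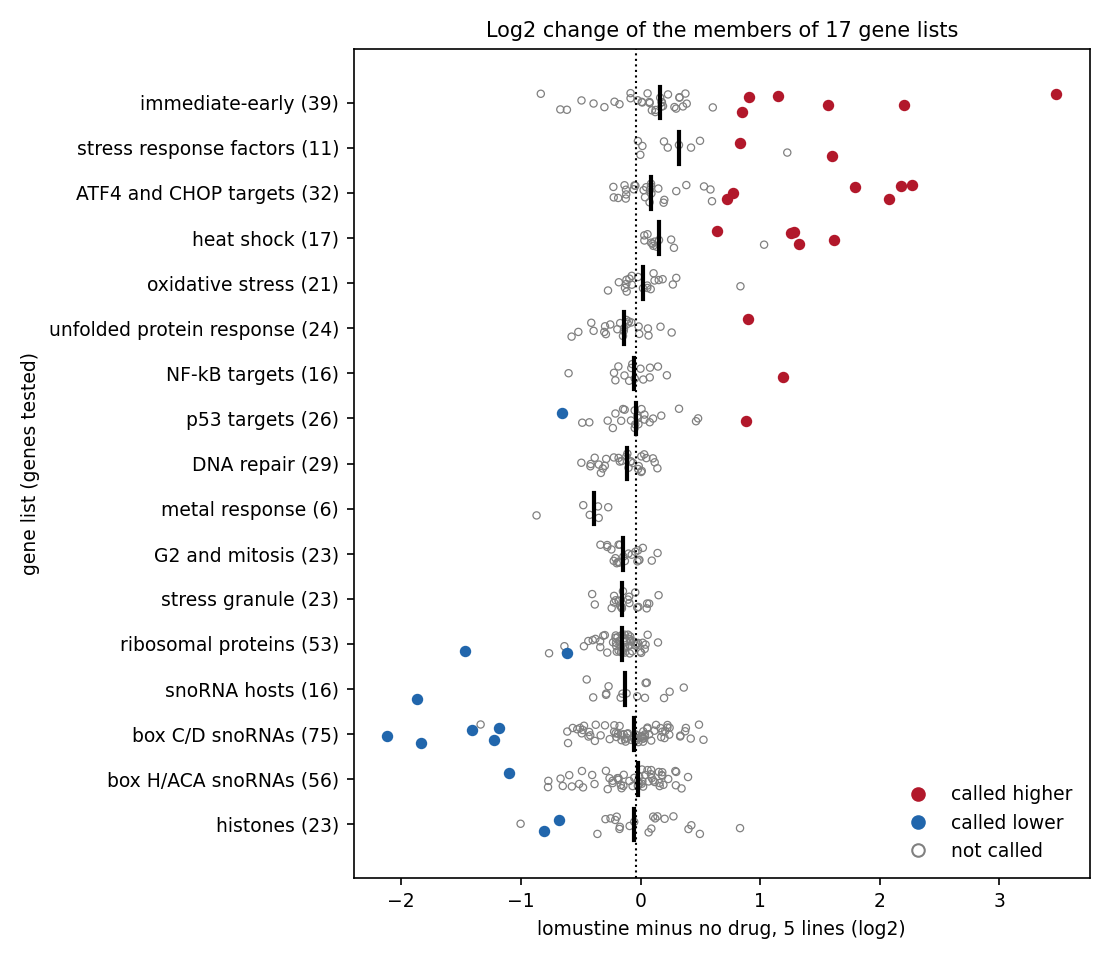
Log2 change with lomustine against no drug over the 5 lines (horizontal axis) for each tested member of 17 gene lists (rows, with the number tested); filled points passed limma's test, open ones did not, bars are list medians and the dotted line is the median of all genes, -0.03. The called genes of the immediate-early, stress response and heat shock lists stand far to the right of their own list medians, which lie between 0.09 and 0.32. The same changes chose the called genes, so their position describes them and does not support their calls.

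The response was next compared among the 5 lines, 4 of which were bought with a mutation in a single kinase. Kinase activity was not measured on these arrays, so the comparison is one of lines. A moderated F test over the 4 interaction terms called 0 of 16991 genes at an adjusted p of 0.05, and 61 had an unadjusted p under 0.05. With 1 array an arm in 3 of the lines, the test had 4 residual degrees of freedom. EGR1 was steady, with line differences of 3.78 in PAR, 3.16 in HRI, 3.53 in GCN2, 3.49 in PKR and 3.44 in PERK. ULBP1 was steadier still, from 2.02 in PKR to 2.38 in HRI. CHAC1 was less even, at 0.90 in HRI against 2.37 in PAR, 2.67 in GCN2, 2.54 in PKR and 2.81 in PERK (unadjusted p = 0.0487 in the F test, adjusted p = 1). ATF3 was 0.83 in HRI and 1.18 to 2.64 elsewhere, SESN2 was 1.32 in HRI and 1.80 to 2.07 elsewhere, and ARRDC3 was 1.35 in HRI and 1.59 to 2.27 elsewhere, so that HRI gave the lowest difference in each. ZFAND2A went the other way, with 2.23 in HRI and 1.04 to 1.61 elsewhere. HRI was also lowest in called genes outside the stress response lists, among them EGR1, JUN (1.93), BCL6 (1.03) and IER2 (0.73). DDIT4, DUSP1 and SERTAD1 were lowest in PERK, at 1.715, 1.04 and 0.92. PERK was lowest for GADD45B, at 0.42 against 1.35 to 2.21 in the other lines, and for FOS, at 0.20 against 0.85 to 2.00. RNU12 ranged from -1.18 in PAR to -2.81 in PERK (unadjusted p = 0.0304). Among all genes the smallest p values in this test belonged to RNU6-14P (0.00314) and RNY4P23 (0.00553), pseudogenes of small RNAs whose means lay near 2.41 in both arms.

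**Figure D3:**
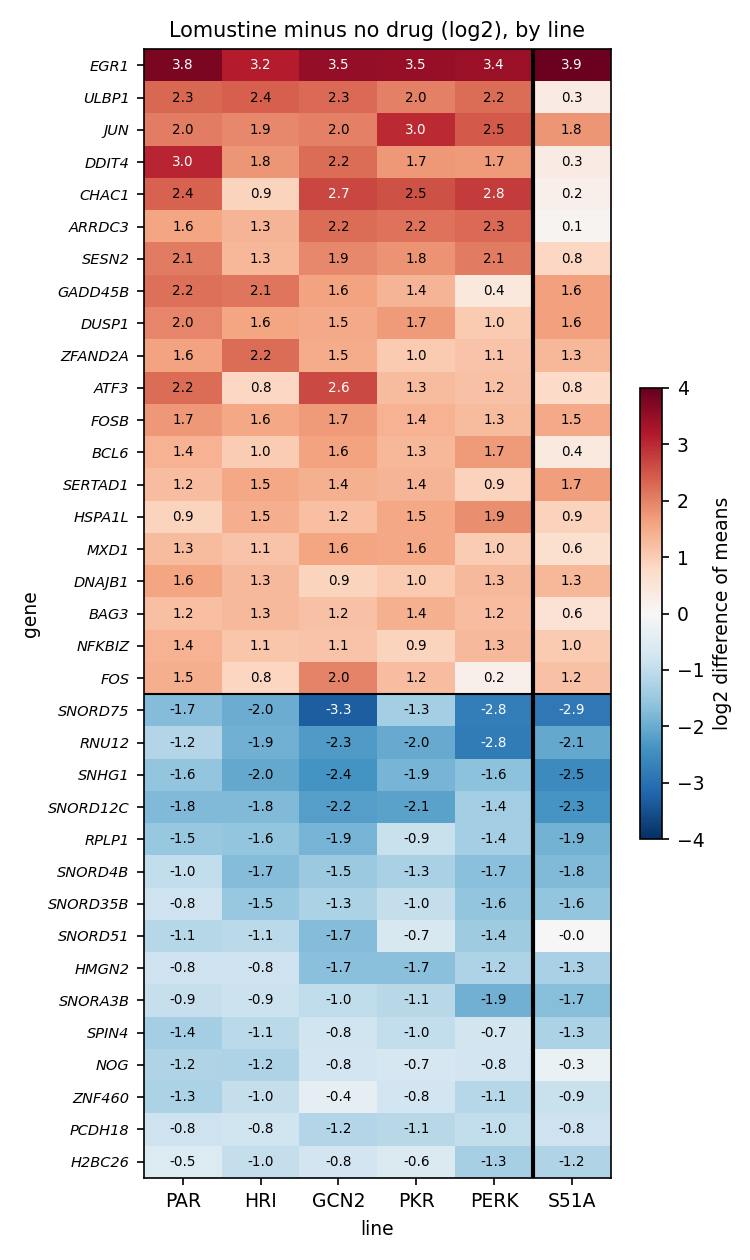
Difference of mean log2 signal, lomustine minus no drug, in each of the 5 lines and, right of the black line, in S51A (columns), for the 20 largest changes among genes called higher and the 15 largest among genes called lower (rows). Colour and number give the difference; EGR1 lies between 3.16 and 3.78 in the 5 lines and at 3.91 in S51A, while ULBP1, DDIT4, CHAC1 and ARRDC3 lie between 0.11 and 0.34 in S51A.

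The same genes were then read in S51A, which took no part in their choice. In S51A, 29 of the 34 genes called higher in the 5 lines had a positive change and 28 of the 29 called lower had a negative one, and the medians were 0.67 and -0.86, against 1.27 and -0.81 in the 5 lines, whose values chose the genes. Over all genes tested the median change in S51A was -0.11, so most genes had a negative change there. The share of all genes with each sign in S51A was not counted, with both lomustine arrays or with either alone. The sign counts therefore only describe the called genes. S51A lomustine B stood apart from the other arrays, with 8.71% of its probe sets over 1 log2 unit away from their medians among the 14 arrays of the 5 lines. With S51A lomustine A alone, 34 and 29 had the sign of the 5 lines and the medians were 1.07 and -0.54. With B alone, 21 and 26 had it. Of the 6 immediate-early genes called in the 5 lines, 4 had changes in S51A close to those of the 5 lines: EGR1 3.91 against 3.48, JUN 1.78 against 2.20, FOSB 1.51 against 1.56 and FOS 1.17 against 1.15. DUSP1 had 1.65 against 1.62. IER2 had 0.28 against 0.91 and ZFP36 0.45 against 0.85, but with S51A lomustine A alone they had 0.89 and 1.00, and JUN had 2.79. Of the 5 heat shock genes, DNAJB1 had 1.34 against 1.28, ZFAND2A 1.33 against 1.62, HSPA1L 0.92 against 1.33, BAG3 0.58 against 1.26 and DEDD2 -0.19 against 0.64. The lower values among these rested on S51A lomustine B: with A alone HSPA1L had 1.56, BAG3 1.22 and DEDD2 0.42.

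Most of the called stress response targets had smaller changes in S51A than in the 5 lines. ULBP1 had 7.02 and 5.53 on the lomustine arrays of S51A and 6.01 and 5.86 on its no drug arrays, so the arms overlapped, with a change of 0.34 against 2.27 in the 5 lines. CHAC1 had 5.21 and 5.30 with lomustine and 5.27 and 4.81 with no drug in S51A, a change of 0.22 against 2.08. DDIT4 had 0.33 against 2.18, ASNS -0.06 against 0.72 and SESN2 0.82 against 1.79, while SLC38A2, another member of the target list, had 0.70 against 0.77. Of the 2 called factors and feedback genes, ATF3 had 0.78 against 1.60. The other, PPP1R15A, had 0.74 against 0.84, and 1.06 with S51A lomustine A alone. Outside these lists, ARRDC3 had 0.11 against 1.80 and HERPUD1 -0.36 against 0.89. With S51A lomustine A alone, CHAC1 had 0.17, DDIT4 0.07, HERPUD1 0.12 and ASNS 0.10, the last 2 with their sign turned, while ARRDC3 had 0.65, ULBP1 1.09, SESN2 1.24 and ATF3 0.84. The interaction test called 0 of 16991 genes (513 had an unadjusted p under 0.05, and every adjusted p of a named gene was 0.926 or more). The differences of S51A from the 5 lines were -1.93 for ULBP1 (SE 0.42, unadjusted p = 3.24e-04), -1.85 for DDIT4 (SE 0.46, unadjusted p = 0.00119), -1.87 for CHAC1 (SE 0.53, unadjusted p = 0.00319), -1.69 for ARRDC3 (SE 0.41, unadjusted p = 8.56e-04) and -1.25 for HERPUD1 (SE 0.30, unadjusted p = 7.81e-04), beside 0.44 for EGR1 (SE 0.45, unadjusted p = 0.345). None of these passed the adjustment. Without S51A lomustine B the differences were -1.18 for ULBP1, -2.11 for DDIT4, -1.91 for CHAC1, -1.14 for ARRDC3, -0.78 for HERPUD1 and 1.03 for EGR1. The count of called genes was 0 without that array and 1666 without S51A lomustine A, where the array that stands apart is the only one left in its group. The smallest p over all genes was that of SNHG12, a host transcript, with -1.33 in S51A against 0.24 in the 5 lines (SE of the difference 0.33, unadjusted p = 2.36e-04). SNORD75, RNU12 and SNHG1 were low with lomustine in S51A too, at -2.86 against -2.12, -2.06 against -1.90 and -2.55 against -1.87, and with S51A lomustine A alone they had -3.27, -2.03 and -1.93. For the other small RNAs the size depended on S51A lomustine B. SNORD12C had -2.35 against -1.84, SNORD4B -1.76 against -1.41, SNORD35B -1.57 against -1.22 and SNORA3B -1.72 against -1.10, but with A alone -0.92, -0.53, -0.85 and -0.61. SNORD51 had -0.01 against -1.19 (unadjusted p = 0.00461), and -0.14 with A alone.

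**Figure D4:**
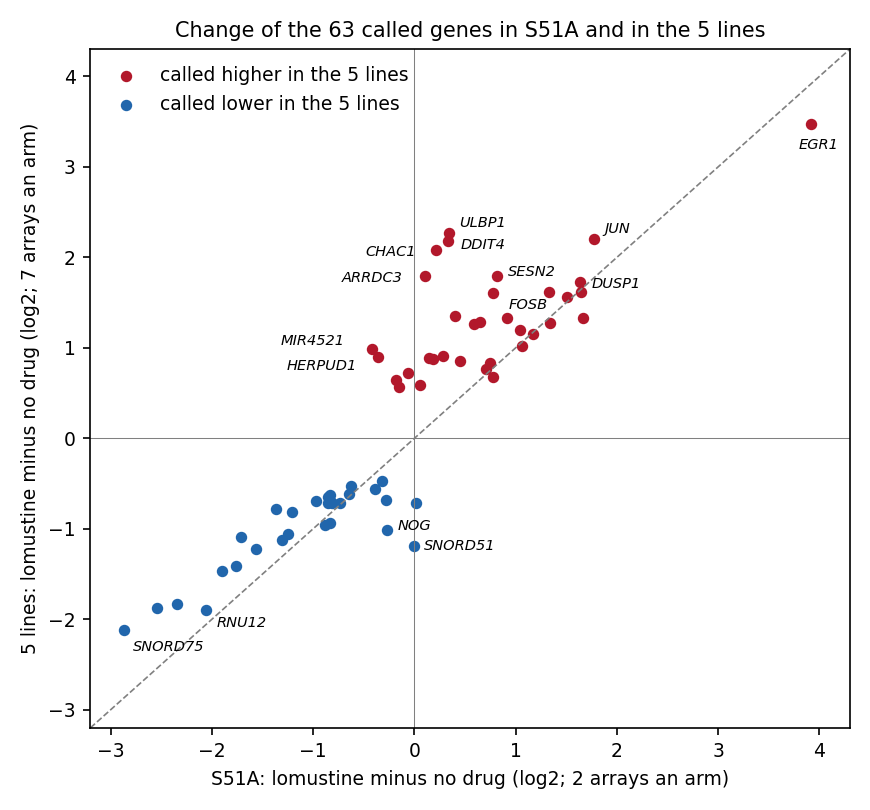
Log2 change with lomustine in S51A (horizontal axis, 2 arrays an arm) and in the 5 lines (vertical axis, 7 arrays an arm) for the 63 called genes; the dashed line marks equal changes. EGR1, JUN, DUSP1 and FOSB lie near the line, and ULBP1, DDIT4, CHAC1 and ARRDC3 lie left of it, at 0.11 to 0.34 in S51A (0.07 to 1.09 with S51A lomustine A alone).

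Finally the SA100 arrays of the 5 lines were set against the lomustine arrays. The 2 treatments differ in agent and dose, and this comparison shares the lomustine arrays with the one above, so the values are given side by side only. Of 16991 genes, 795 were higher with SA100 than with lomustine (4.68%) and 106 lower (0.624%), and this balance depended on the scaling, with 445 higher and 319 lower after quantile normalization. JUN was 3.98 higher with SA100 (SE 0.31), at a mean of 9.70 with SA100, 5.78 with lomustine and 3.58 with no drug. DUSP1 had means of 9.02 with SA100, 6.69 with lomustine and 5.07 with no drug, FOS 6.70, 4.11 and 2.96 in the same order, and EGR1 9.17, 7.74 and 4.26. HMOX1 had 9.08 with SA100, 5.42 with lomustine and 4.59 with no drug, and its difference between the treatments, 3.65 (SE 0.18, adjusted p = 2.88e-09), was the most firmly called. SLC30A1 had 9.48 with SA100, 6.63 with lomustine and 7.50 with no drug, and MT1X, a metallothionein, 9.55, 6.96 and 7.44, so that for both the lomustine mean was the lowest of the 3. ULBP1 had 8.60 with SA100, 8.55 with lomustine and 6.27 with no drug, a difference of 0.01 between the treatments (SE 0.14, adjusted p = 0.968), and SLC38A2 differed by 0.02 (SE 0.10, adjusted p = 0.925). ARRDC3 had 7.14 with SA100, 7.96 with lomustine and 6.17 with no drug, a difference between the treatments of -0.85 (SE 0.19, adjusted p = 0.0191). NFKBIZ had 2.93 with SA100, 3.65 with lomustine and 2.46 with no drug, and HSD17B7 2.01, 2.85 and 1.83. SNORD51 had 6.81 with SA100, 5.53 with lomustine and 6.71 with no drug, and NOG 5.64, 4.65 and 5.66, so that for these the SA100 mean lay near that of no drug. SNORD75 had 2.20 with SA100, 2.75 with lomustine and 4.87 with no drug, and RNU12 3.98, 3.88 and 5.78, low with both agents.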

How the data were processed

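The authors deposited log2 values for 53617 probe sets on 24 arrays, made with RMA and affy per the submitters' processing notes. Versions, filters and genome build are not given in the sources used here. Of 25713 annotated probe sets, 23871 had 1 symbol (90 updated through RefSeq), 1842 with several were left out, and 27904 were not annotated. The probe set with the highest mean stood for each of 22395 genes (632 had several). Genes at or above 2.41, the median of all values, on at least 2 of the 14 arrays were tested (16991), and 5404 were left out. Two-sided tests came from limma 3.58.1 in R 4.3.3. Their p-values were adjusted by Benjamini and Hochberg's method over the 16991 genes, calls needed an adjusted p under 0.05, and the fits were tested on simulated data. Residual degrees of freedom were 8 (line as block), 4 (lines compared), 10 (S51A, 18 arrays) and 12 (SA100, 19 arrays). A mean under 2.41 in 1 arm leaves the size of a change less certain, though 2.41 is the median of all values and not a detection limit. Arrays give no read depth, and their number limits the precision.

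The genes named were EGR1, ATF4, EIF2S1 and the kinase genes, up to 15 of the largest calls in each direction that moved alike in 5 lines, up to 4 called members of each list or the 2 with the smallest p, the smallest p of the other tests, and the called genes with the most even line differences. Members and lists were chosen with earlier results of these data known. Alternatives covered the filter, the probe set summary, scaling, limma's prior, blocks, and arrays or lines left out.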

Additional observations from a re-analysis of the deposited data

Results flagged for a closer look

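Within an arm of 7 arrays, 12 of the 158 arm values looked at (79 named genes in 2 arms) had 1 array far from the rest by Dixon's test, where chance flags about 1 in 20 groups. Under lomustine these were ZFAND2A at 6.85 on HRI B, SNORD4B at 5.96 and SNORD35B at 4.18 on PAR B, H2BC26 at 6.08 on PERK, and REV3L at 5.00 on PAR A. With no drug they were ULBP1 at 5.31 on HRI B, SESN2 at 4.05 and LENG8 at 4.66 on HRI A, NOG at 6.17 on PAR B, and MT1X at 8.52, BST2 at 5.14 and SNORD41 at 7.72 on PAR A. The 3 values of PAR no drug A lie in genes that did not pass the test. ULBP1, SESN2, ZFAND2A and NOG were called in all 24 alternatives, including those that left these arrays out.

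Probe sets without a gene in the annotation were tested apart. Of 13450, limma called 5 higher and 100 lower with lomustine, 17 of them by more than SNORD75 and the furthest by -3.59. Some of the called probe sets had the same change, SE and means as another. The counts are therefore of probe sets and not of separate transcripts. These probe sets cannot be named here.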

How the results depend on the processing

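Under 24 alternatives, 16 of the 34 genes called higher (ARRDC3, BAG3, BCL6, CHAC1, DDIT4, DNAJB1, DUSP1, EGR1, FOSB, MXD1, PMAIP1, SERTAD1, SESN2, SLC38A2, ULBP1 and ZFAND2A) and 5 of the 29 called lower (NOG, RNU12, RPLP1, SNHG1 and SNORD75) passed in every one. The number called higher and lower moved to 57 and 31 after quantile normalization, 30 and 18 after centring arrays on their medians, 40 and 48 with a trended robust prior, and 73 and 115 with each line counted once. Leaving out a line or an array gave 21 to 56 higher and 7 to 61 lower. With 3 arrays left out, chosen after seeing the data (PAR lomustine A, HRI no drug A and HRI lomustine B), 114 were higher, 32 of them among the 34, and 127 lower, 28 among the 29. With the letters as a replicate block 36 were higher and 27 lower. Differences between A and B correlated across arms with r = 0.338 in PAR and -0.566 in HRI, so the letters were not taken to pair arrays. Crossing the HRI letters gave 61 and 137. The count in the S51A comparison was 0 to 1666 with an S51A array left out, and 0 under the other settings tried. SA100 against lomustine gave 445 higher and 319 lower after quantile normalization, 440 and 64 after centring, and 165 to 981 and 11 to 106 without a line. The cause of these moves was not tested. Changes near 0 with no call turned sign. After quantile normalization EIF2AK1 had 0.032, EIF2AK3 0.039 and EIF2AK4 0.083. With each line counted once EIF2AK3 had 0.016, EIF2AK4 0.0051 and RNY4P23 -0.024, and without the 3 arrays EIF2AK1 had 0.014, EIF2AK3 0.051, EIF2AK4 0.086 and RNY4P23 -0.15. Leaving out a line or array gave -0.077 to 0.029 for EIF2AK1, -0.10 to 0.061 for EIF2AK3, -0.055 to 0.062 for EIF2AK4, -0.14 to 0.35 for RNU6-14P and -0.14 to 0.62 for RNY4P23. With 1 or 2 arrays per line and arm, changes that differ between lines are poorly resolved.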
